A study of Homo sapiens with 4 samples.

Results

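The kinetochore and spindle checkpoint genes are 38 genes chosen by a list of symbols, with no filter on their measured values. Earlier results of these data were known when the list was made. The 38 genes encode the centromere histone and its inner kinetochore network, the corona proteins and the outer kinetochore. They also encode the SKA complex, the checkpoint proteins, the shugoshins and the chromosomal passenger complex. All 38 were matched in each of the 4 deposited tables, out of 27629 genes listed in at least 1 table, and all 38 stood at 1 CPM or more in every library. CPM is the number of reads of a gene scaled to a common library size.

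RNA-seq was performed on UM-UC-3 cells, a long-established cell line from a human bladder cancer, that had received siRNA at 75 nM with Lipofectamine RNAiMAX 48 h earlier. The 4 groups were control siRNA, si-hnRNPK, si-PTBP1 and a group labelled si-lncRNA-LBCS, with 1 library each, and each group other than the control received a mixture of 2 siRNAs. All groups shared the cell line, the transfection reagent and the siRNA dose. The study asked which genes change after hnRNPK knockdown. hnRNPK is an RNA- and DNA-binding protein, PTBP1 is an RNA-binding splicing regulator, and LBCS is a long non-coding RNA.

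The kinetochore is the protein assembly that joins a chromosome to spindle microtubules during cell division. Its inner part rests on nucleosomes that hold the histone variant CENP-A, and its outer part, built from the NDC80 and MIS12 complexes and KNL1, grips the microtubules. The spindle checkpoint proteins gather on kinetochores without proper attachments and hold back the anaphase-promoting complex. Shugoshins shield the cohesin that ties sister chromatids together, and the passenger complex corrects faulty attachments. The mRNAs of many of these genes are most abundant in dividing cells, late in the cell cycle. In bulk RNA, fewer dividing cells and less RNA per cell cannot be told apart.

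The reads on listed genes numbered 54301152 to 70232674 per library, and the lowest of the 38 genes still had 219 reads in si-hnRNPK and at least 659 in the other libraries. Of the targeted genes, HNRNPK was at 783.1 CPM in the control and 187.8 CPM in si-hnRNPK, 24.0% of the control level (95% counting interval 23.5% to 24.5%). PTBP1 was at 280.0 CPM in the control and 89.7 CPM in si-PTBP1, 32.0% of the control level (31.0% to 33.1%). Both siRNAs of the si-lncRNA-LBCS group matched ENSG00000228412 and no other annotated gene. It had 110 reads in the control and 103 in the si-lncRNA-LBCS-labelled library, 81.8% of the control level with an interval of 61.9% to 108%. A fall of the target against control was therefore not shown at this depth. The target was at 1.79 CPM in the control, 1.47 in the si-lncRNA-LBCS-labelled library, 3.43 in si-hnRNPK and 3.82 in si-PTBP1. Of 16 epithelial and urothelial markers 12 were listed in both the control and si-hnRNPK, and 4 were at 1 CPM or more in the control. The epithelial keratins KRT8 and KRT18 were at 63.0 and 121.4 CPM there, whereas CDH1 and EPCAM were not listed in every library. Of 14 white blood cell markers 5 were listed, with summed levels between 0.897 and 3.52 CPM per library. Of 10 fibroblast and endothelial markers 5 were listed, with summed levels between 0.897 and 4.16 CPM. The summed epithelial markers, mostly KRT8 and KRT18, lay between 155.4 and 218.8 CPM in the 4 libraries. The uroplakin genes UPK1A, UPK1B and UPK2, which define mature urothelium, were at no more than 0.261 CPM in any of them. Among the markers 1 epithelial gene, TP63, was higher than control by 1.38 in si-hnRNPK and 1.33 in si-PTBP1 on the log2(CPM + 1) scale, and 1 fibroblast gene, COL1A1, by 1.21 in si-PTBP1, all from less than 0.5 CPM in the control.

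There are no replicates, so the spread between cultures is unknown and no p-value of a condition can be given. A change is the difference in log2(CPM + 1) between a pair of libraries, a scale that slightly understates the change of low genes, and the threshold is 1. Each interval is a 95% exact Clopper-Pearson interval and covers counting error only.

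hnRNPK knockdown was accompanied by lower levels of nearly the whole group. The 38 genes together took 3223 CPM in the control library, 3282 CPM in the si-lncRNA-LBCS-labelled library, 2754 CPM in si-PTBP1 and 1666 CPM in si-hnRNPK. Their median level was 44.2, 49.1, 47.1 and 24.7 CPM in the same order. The si-hnRNPK library held the lowest value of 37 of the 38 genes, the exception being SKA2. It held the highest value of none, whereas the si-lncRNA-LBCS-labelled library held the highest of 20, the control of 14 and si-PTBP1 of 4.

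In si-hnRNPK as compared with control siRNA, 18 of the 38 genes were lower by 1 or more on that scale, where 3.93% of the 13672 genes tested were. None of the 38 was higher by at least 1, where 3.55% of all genes tested were. A value below 0 was found for 37 of the 38, with an interval below 0 for the same 37, whereas 58.4% of all genes tested were below 0. The median change of the 38 was -0.98, with quartiles of -1.29 and -0.71, beside a median of -0.11 over all genes tested. The changes ran from -1.93 for SGO2 to 0.02 for SKA2. The 6 genes nearest the threshold, within 0.1 of it, were CENPO, BUB1B and INCENP just past it, at -1.04, -1.04 and -1.05, and SPC24, TTK and CENPW just short of it, at -0.99, -0.98 and -0.92. Median-of-ratios scaling, which sets the median ratio of 12362 shared genes equal between libraries, put the factor of si-hnRNPK at -0.11 relative to control on the log2 scale. It left 37 genes below 0 and 15 lower by at least 1, the calls of CENPO, BUB1B and INCENP being lost, while over all genes tested it gave 374 lower and 610 higher in place of 537 and 486.

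**Figure D1:**
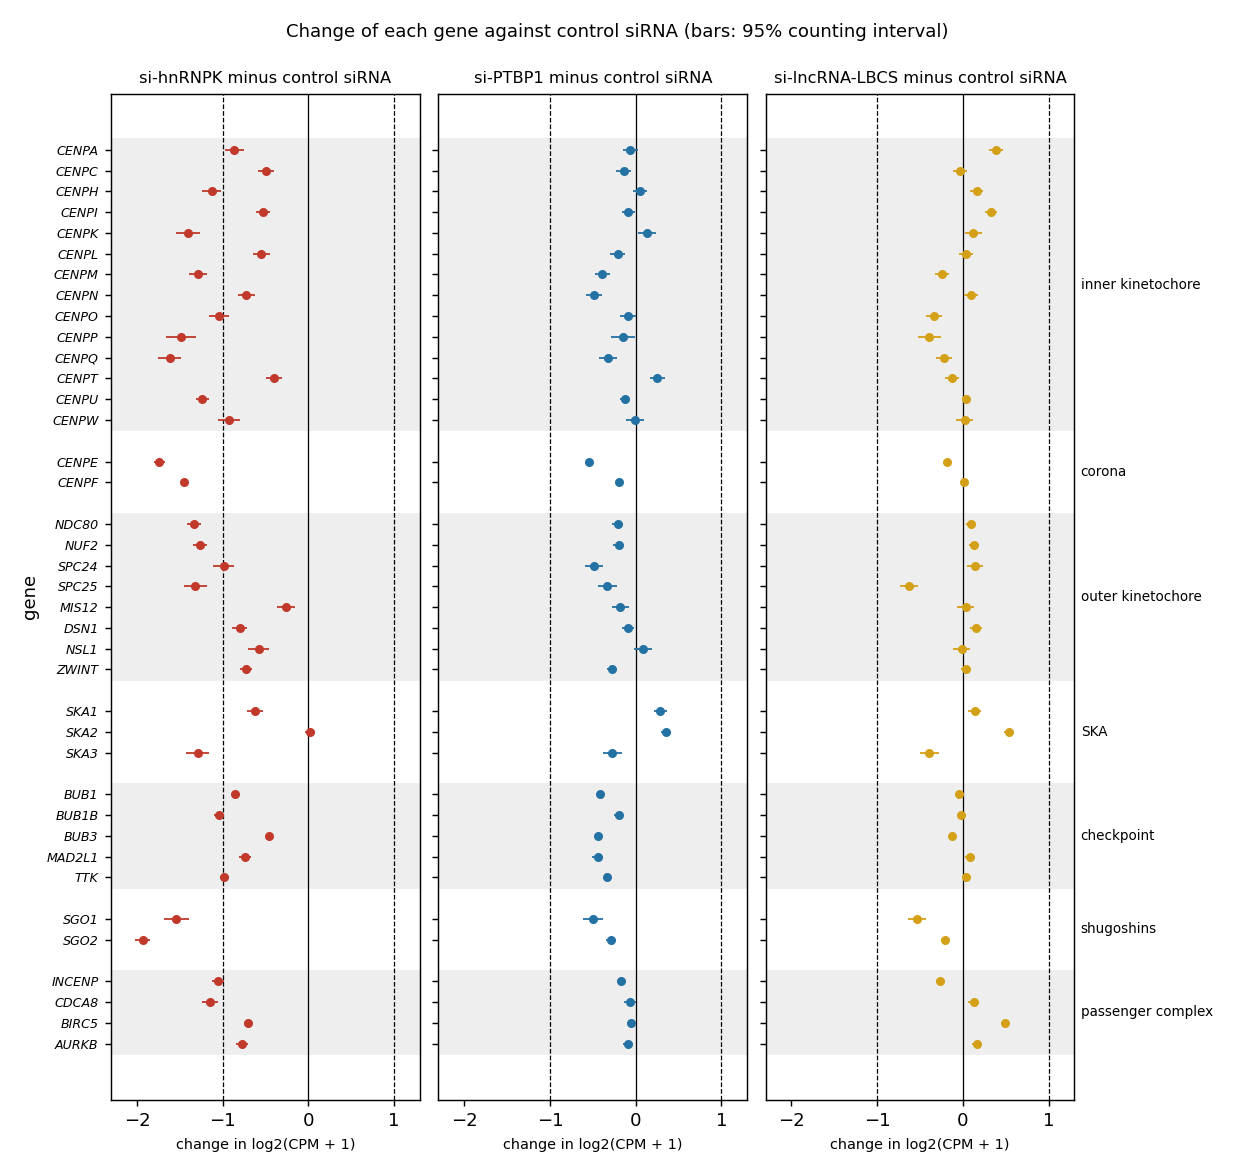
Change of each of the 38 genes (vertical axis, grouped by role) against the control library on the log2(CPM + 1) scale (horizontal axis) in si-hnRNPK, si-PTBP1 and the si-lncRNA-LBCS-labelled library. Points are 1 library against 1 library, bars are 95% counting intervals and dashed lines mark the threshold of 1. In si-hnRNPK 37 of the 38 points lie left of 0 and 18 lie past the threshold, and in the other panels no point passes it.

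**Figure D2:**
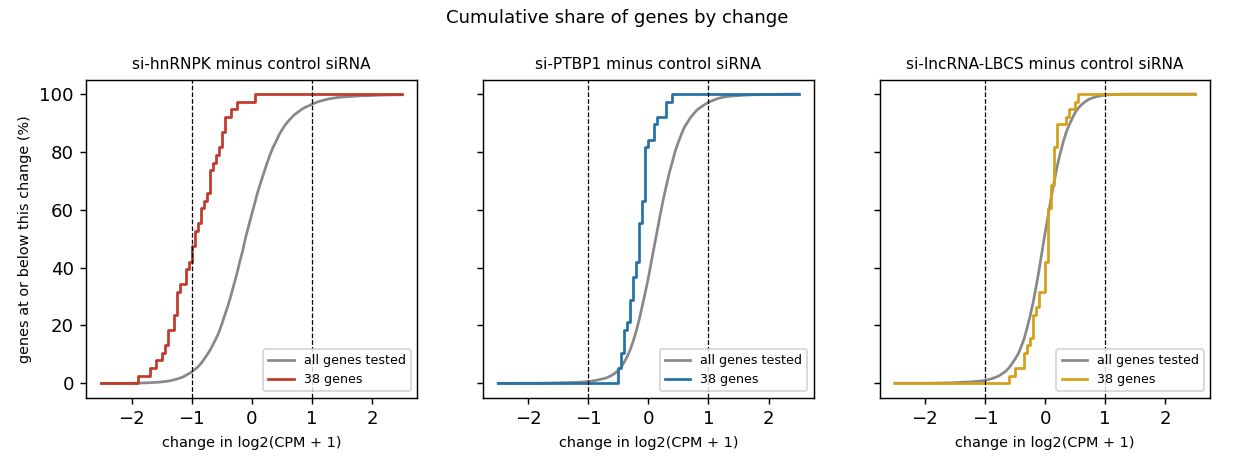
Cumulative percent of genes (vertical axis) at or below a given change in log2(CPM + 1) against the control library (horizontal axis), for all genes tested in grey and the 38 kinetochore and checkpoint genes in colour. The coloured curve lies far left of the grey curve in si-hnRNPK, with medians of -0.98 and -0.11, and closer to it in si-PTBP1 and the si-lncRNA-LBCS-labelled library.

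The shugoshins had the lowest median of the 7 roles in si-hnRNPK, -1.74. SGO2 (chromosome 2, 200510008 to 200583782, plus strand, GRCh38) brings a phosphatase and a microtubule-depolymerising kinesin to centromeres. It was at 85.8 CPM in the control, 74.3 in the si-lncRNA-LBCS-labelled library, 70.1 in si-PTBP1 and 21.7 in si-hnRNPK. SGO1 (chromosome 3, 20160593 to 20186292, minus strand), the protector of centromeric cohesin in mitosis, was at 22.4, 15.1, 15.5 and 7.03 CPM in the same order. Both genes were highest in the control and lowest in si-hnRNPK, where SGO2 retained 25.3% (interval 23.8% to 27.0%) and SGO1 31.5% (28.0% to 35.3%) of the control level. The changes in si-hnRNPK were -1.93 (-2.02 to -1.85) for SGO2 and -1.54 (-1.68 to -1.39) for SGO1. The changes of SGO1 in the si-lncRNA-LBCS-labelled library and in si-PTBP1 were -0.53 and -0.50, short of the threshold. Exons of SGO1 share 17.7% of their bases with SGO1-AS1 on the opposite strand, and the sources used here do not say whether reads were counted by strand.

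The corona proteins, which form the outermost layer of an unattached kinetochore, were both past the threshold. CENPE (chromosome 4, 103105806 to 103198409, minus strand) encodes a kinesin motor that carries chromosomes to the spindle equator. It was at 150.3 CPM in the control, 132.1 in the si-lncRNA-LBCS-labelled library, 102.7 in si-PTBP1 and 44.4 in si-hnRNPK. CENPF (chromosome 1, 214603195 to 214664588, plus strand), a large coiled-coil protein of the corona, was at 530.6, 534.4, 462.0 and 193.8 CPM. For both genes si-hnRNPK was the lowest library and si-PTBP1 the next. The change in si-hnRNPK was -1.74 (-1.80 to -1.67) for CENPE and -1.45 (-1.48 to -1.42) for CENPF. CENPE also had the lowest change of the 38 genes in si-PTBP1, -0.55 (-0.59 to -0.50).

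Of the 14 inner kinetochore genes, 7 were lower by at least 1 in si-hnRNPK, all 14 were below 0 and the median was -0.98. CENPA, the histone H3 variant that marks the centromere, was at 30.7 CPM in the control, 40.4 in the si-lncRNA-LBCS-labelled library, 29.4 in si-PTBP1 and 16.4 in si-hnRNPK. CENPC, which binds CENP-A nucleosomes and reaches out to the MIS12 complex, was at 34.8, 33.8, 31.5 and 24.4 CPM. CENPN and CENPL are a pair that also contacts CENP-A nucleosomes. They were at 35.9 and 34.6 CPM in the control and 21.3 and 23.3 CPM in si-hnRNPK. None of these 4 passed the threshold, with changes of -0.86 (CENPA), -0.49 (CENPC), -0.73 (CENPN) and -0.55 (CENPL).

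The 4 genes of the CENP-H, CENP-I, CENP-K and CENP-M subcomplex, which links the nucleosome-binding proteins to the rest of the network, did not move by the same amount. CENPK was at 24.7 CPM in the control, 27.0 in the si-lncRNA-LBCS-labelled library, 27.1 in si-PTBP1 and 8.71 in si-hnRNPK. CENPM was at 38.7, 32.4, 29.3 and 15.3 CPM and CENPH at 37.1, 41.6, 38.5 and 16.4 CPM in the same order. CENPI was at 49.2, 62.0, 46.3 and 33.8 CPM, so it retained 68.6% of its control level in si-hnRNPK where CENPK retained 35.3%. The changes were -1.40 (CENPK), -1.29 (CENPM), -1.13 (CENPH) and -0.53 (CENPI), and the interval of CENPI, -0.61 to -0.45, did not reach those of the other 3.

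All of the 4 listed genes of the subcomplex of CENP-O, CENP-P, CENP-Q and CENP-U were lower by at least 1. ITGB3BP, which encodes a further member of it, CENP-R, is outside the 38 and was short of the threshold. Its level was 44.1 CPM in the control and 30.3 CPM in si-hnRNPK, a change of -0.53. CENPQ, whose product binds microtubules, was at 27.6 CPM in the control, 23.6 in the si-lncRNA-LBCS-labelled library, 21.8 in si-PTBP1 and 8.32 in si-hnRNPK. CENPU, a docking site for the kinase PLK1, was at 82.6, 84.8, 75.9 and 34.5 CPM. CENPP was at 13.1, 9.75, 11.8 and 4.03 CPM, and CENPO at 30.7, 24.1, 28.9 and 14.4 CPM. The changes were -1.62 for CENPQ, -1.49 for CENPP, -1.24 for CENPU and -1.04 for CENPO, of which that of CENPO was -0.94 under median-of-ratios scaling. CENPP had the fewest reads of the 38 genes in every library, 219 of them in si-hnRNPK. Exons of CENPP share 37.97% of their bases with IPPK on the opposite strand, those of CENPO share 27.0% with ADCY3 and those of CENPU 11.7% with PRIMPOL.

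The histone-fold proteins CENP-T and CENP-W make another link, besides CENP-C, to the NDC80 complex. CENPT was at 33.5 CPM in the control, 30.5 in the si-lncRNA-LBCS-labelled library, 40.0 in si-PTBP1 and 25.2 in si-hnRNPK. CENPW was at 21.5, 21.8, 21.4 and 10.9 CPM. Their changes in si-hnRNPK, -0.40 (-0.49 to -0.30) and -0.92 (-1.05 to -0.79), did not overlap in their counting intervals.

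The outer kinetochore genes differed in the size of their changes. NDC80 and NUF2 encode the microtubule-binding arm of the NDC80 complex, and SPC24 and SPC25 the arm that faces the chromosome. NDC80 was at 74.4 CPM in the control, 79.5 in the si-lncRNA-LBCS-labelled library, 64.2 in si-PTBP1 and 28.9 in si-hnRNPK. NUF2 was at 73.3, 80.2, 63.8 and 29.8 CPM. The si-hnRNPK change was -1.33 (-1.42 to -1.25) for NDC80 and -1.27 (-1.35 to -1.19) for NUF2, and their levels per kilobase of exon, 20.7 and 21.8 CPM in the control and 8.03 and 8.88 CPM in si-hnRNPK, stayed close to each other. SPC25 was at 24.7, 15.6, 19.4 and 9.28 CPM and SPC24 at 26.8, 29.7, 18.8 and 13.0 CPM in the 4 libraries as ordered above. SPC25 changed by -1.32 in si-hnRNPK and SPC24 by -0.99, so 3 of the 4 NDC80 complex genes were past the threshold.

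No gene of the MIS12 complex passed it. DSN1 was at 53.0 CPM in the control, 59.1 in the si-lncRNA-LBCS-labelled library, 49.6 in si-PTBP1 and 30.0 in si-hnRNPK, a change of -0.80. NSL1 was at 23.2, 22.97, 24.6 and 15.2 CPM, a change of -0.58, and MIS12 at 25.6, 26.2, 22.5 and 21.3 CPM, a change of -0.26 (-0.36 to -0.15). MIS12 thus retained 83.04% of its control level, the most of any of the 38 genes apart from SKA2. ZWINT, which joins KNL1 and the corona, was at 77.6 CPM in the control and 46.4 CPM in si-hnRNPK, a change of -0.73.

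The SKA complex helps NDC80 to hold on to microtubule ends as they shorten, and its 3 genes differed most widely among the roles. SKA3 was at 22.8 CPM in the control, 17.1 in the si-lncRNA-LBCS-labelled library, 18.7 in si-PTBP1 and 8.71 in si-hnRNPK. SKA1 was at 39.1, 43.2, 48.0 and 25.03 CPM. SKA2 (chromosome 17, 59109951 to 59155269, minus strand) was at 69.8 CPM in the control, 101.6 CPM in the si-lncRNA-LBCS-labelled library, 89.8 CPM in si-PTBP1 and 70.8 CPM in si-hnRNPK. SKA2 was therefore the single gene of the 38 with its lowest value in the control library. The changes in si-hnRNPK were -1.29 (-1.43 to -1.16) for SKA3, -0.62 (-0.72 to -0.53) for SKA1 and 0.02 (-0.04 to 0.08) for SKA2. Median-of-ratios scaling gave 0.13 for SKA2.

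Of the 5 spindle checkpoint genes, 1 was past the threshold in si-hnRNPK, all 5 were below 0 and the median was -0.85. BUB1B encodes BUBR1, a part of the complex that inhibits the anaphase-promoting complex, and was at 119.0 CPM in the control, 117.6 in the si-lncRNA-LBCS-labelled library, 103.6 in si-PTBP1 and 57.3 in si-hnRNPK. TTK encodes MPS1, the kinase that starts checkpoint signalling, and was at 176.3, 180.8, 140.1 and 88.9 CPM. BUB1, a kinase that marks centromeric chromatin and recruits shugoshin, was at 249.1, 242.0, 185.9 and 137.6 CPM. For all 3 genes si-hnRNPK was the lowest library and si-PTBP1 the next. MAD2L1 encodes MAD2, which captures CDC20, and was at 74.8, 79.0, 54.8 and 44.5 CPM. BUB3, the adaptor that carries BUB1 and BUBR1 to the kinetochore, was at 396.3, 364.1, 291.3 and 287.4 CPM, so its si-hnRNPK and si-PTBP1 values hardly differed. The changes in si-hnRNPK were -1.04 (BUB1B), -0.98 (TTK), -0.85 (BUB1), -0.74 (MAD2L1) and -0.46 (BUB3). That of BUB1B was -0.93 under median-of-ratios scaling, which left none of the 5 past the threshold.

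The chromosomal passenger complex consists of the kinase Aurora B and the 3 proteins that place it at the centromere. INCENP, the scaffold, was at 103.5 CPM in the control, 85.9 in the si-lncRNA-LBCS-labelled library, 91.9 in si-PTBP1 and 49.4 in si-hnRNPK. CDCA8, which encodes borealin, was at 50.3, 55.0, 48.0 and 22.2 CPM. Both were past the threshold, at -1.05 for INCENP and -1.15 for CDCA8, and INCENP was at -0.94 under median-of-ratios scaling. AURKB was at 82.2, 91.8, 77.1 and 47.7 CPM, a change of -0.77 in si-hnRNPK. BIRC5, which encodes survivin, was at 177.2, 249.7, 170.0 and 108.7 CPM, a change of -0.70. The BIRC5 value in the si-lncRNA-LBCS-labelled library was thus the highest of the 4 libraries, at 141% (138% to 144%) of the control.

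**Figure D3:**
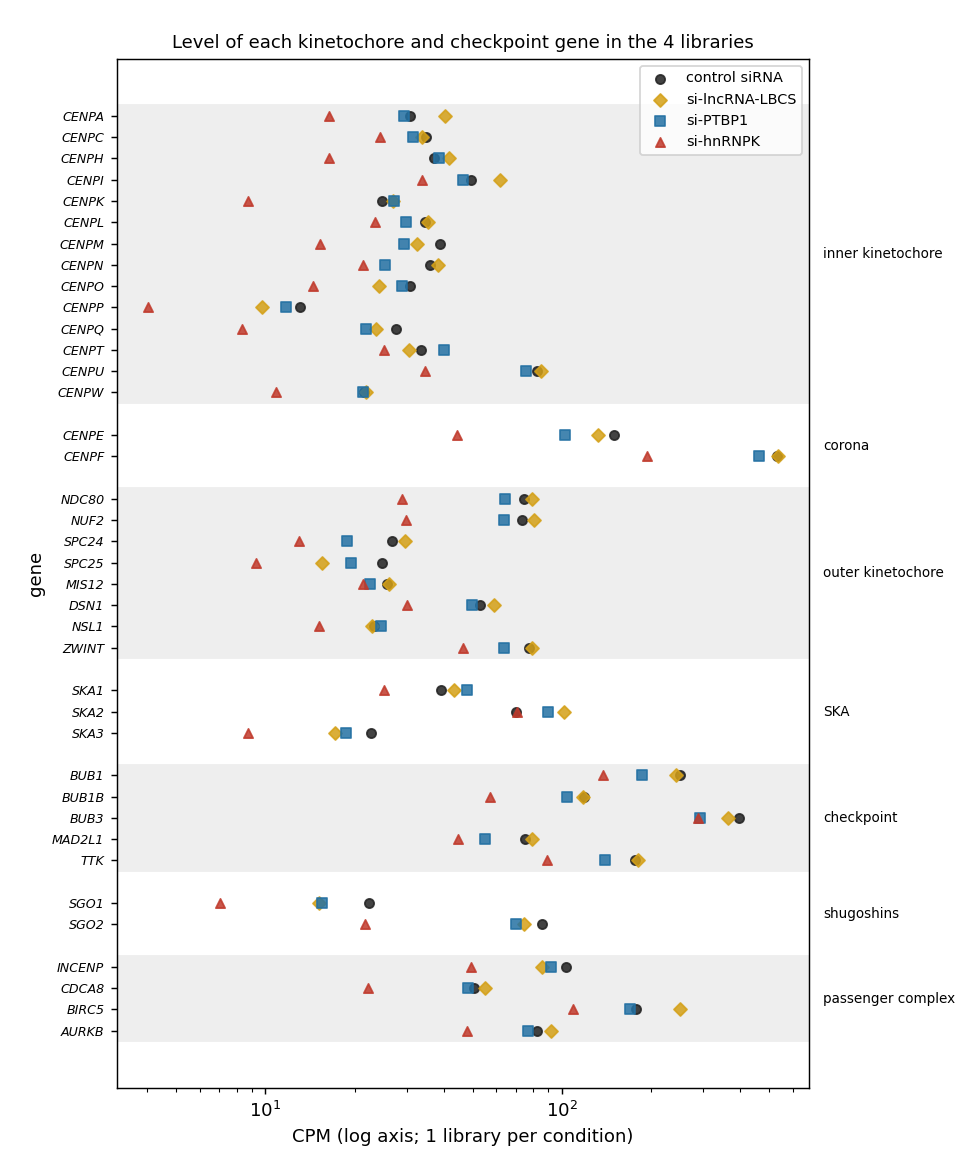
Level in CPM (horizontal log axis) of each of the 38 genes (vertical axis, grouped by role) in the 4 libraries, 1 library per condition. The si-hnRNPK triangles lie left of the other 3 symbols for 37 genes, and for SKA2 the control circle, at 69.8 CPM, is lowest.

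Levels in the control library were also divided by the merged exon length of all annotated transcripts, which can exceed the length of the mRNA present. The highest of the 38 were then BUB3 at 47.8, BIRC5 at 46.4, CENPF at 45.4 and BUB1 at 41.3 CPM per kilobase. The lowest were CENPP at 1.34 and CENPC at 4.04. Of the 4 highest, CENPF was past the threshold in si-hnRNPK and BUB3, BIRC5 and BUB1 were short of it. Of the lowest named, CENPP was past it and CENPC short of it. A relation between level and change over the 38 genes was not tested. Processed copies can take reads of a gene. Of the pseudogenes named for the 38 genes, CENPCP1 and BUB3P1 were listed, at no more than 0.321 CPM in any library. BUB1B shares 10.2% of its exon bases with the read-through gene BUB1B-PAK6 on the same strand, CENPN 12.8% with CMC2 and CENPT 10.8% with TSNAXIP1, both on the opposite strand.

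PTBP1 knockdown left every one of the 38 genes short of the threshold in both directions, where 0.613% of the 13855 genes tested were lower and 2.92% higher by at least 1. The median change was -0.19, beside 0.12 over all genes tested, and 32 of the 38 were below 0, beside 36.5% of all genes tested. The counting interval lay below 0 for 28 genes, above 0 for CENPK, CENPT, SKA1 and SKA2, and spanned 0 for 6. The checkpoint genes had the lowest median of the 7 roles, -0.42, with all 5 below 0, from -0.44 for BUB3 to -0.20 for BUB1B. SKA2 had the highest change, 0.36 (0.30 to 0.42), and SKA1 followed at 0.29. Median-of-ratios scaling put the factor of si-PTBP1 at 0.13 relative to control. It gave a median of -0.31, with 34 genes below 0, CENPH and NSL1 having changed sign, and gave 132 lower and 256 higher genes over all tested in place of 85 and 404.

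In the si-lncRNA-LBCS-labelled library none of the 38 genes was past the threshold either, where 1.01% of the 13492 genes tested were lower and 0.378% higher by at least 1. The 38 genes lay on both sides of 0, with 16 below it, a median of 0.03 and a median of -0.01 over all genes tested. SPC25, at 63.2% of control (58.4% to 68.3%), was the single gene lower by 1.5-fold, and SGO1 followed at 67.6% (62.4% to 73.3%). SKA2 at 145% (140% to 151%), BIRC5 at 141% and CENPA at 132% (124% to 140%) were the highest relative to control. SPC25 and SPC24, which sit together in 1 complex, thus lay on opposite sides of 0, at -0.63 and 0.14.

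The si-hnRNPK library was also set against the other targeting siRNA libraries, so that the control library, which the comparisons above share, took no part. As compared with si-PTBP1, 13 of the 38 genes were lower by at least 1 in si-hnRNPK, where 6.05% of the 13895 genes tested were, and none was higher, where 2.37% were. All 38 were below 0 and the median was -0.86, beside -0.24 over all genes tested. SGO2 at -1.65 and CENPK at -1.54 were lowest, and BUB3 at -0.02 and MIS12 at -0.08 had intervals that spanned 0. This count depended on the scale of the libraries, since median-of-ratios scaling left 5 genes lower by at least 1 and 36 below 0, BUB3 and MIS12 having changed sign. The same scaling gave 369 lower and 530 higher genes over all tested in place of 840 and 330. As compared with the si-lncRNA-LBCS-labelled library, 18 of the 38 genes were lower by at least 1, where 2.51% of the 13480 genes tested were, and none was higher, where 3.10% were. All 38 had an interval below 0, SKA2 included at -0.51, and the median was -0.95 beside -0.09. Median-of-ratios scaling left 14 of the 18, and gave 239 lower and 499 higher genes over all tested in place of 339 and 418.

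Other genes of the same processes were taken from 7 lists, with the 38 left out. In si-hnRNPK no gene of these 7 lists was higher by at least 1, where 3.55% of all genes tested were higher and 3.93% lower. CENPB, MAD1L1 and the genes of the RZZ complex are named below for their roles, after their values were seen. Of 9 CENP-A loading and other centromere genes, 1 was lower by at least 1 and the median was -0.53. That gene was HJURP, the chaperone that deposits CENP-A, at 160.9 CPM in the control and 60.7 CPM in si-hnRNPK (-1.39). CENPB, which binds a motif of centromeric repeats, was at 188.4 and 197.6 CPM (0.07). Of 13 other outer kinetochore and corona genes, 3 were lower by at least 1 and the median was -0.50. They were KNL1, the scaffold for BUB1 and BUBR1, at 205.5 and 72.8 CPM (-1.48), the spindle protein gene SPAG5 at 62.8 and 21.7 CPM (-1.49) and the dynein regulator gene NDE1 at 28.9 and 11.3 CPM (-1.28). The genes of the RZZ complex, which holds MAD1 and dynein at the corona, were short of the threshold. KNTC1 was at -0.86, further from 0 than the median of this list, ZWILCH at -0.25 and ZW10 at -0.06.

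Of 7 other checkpoint regulators, 3 were lower by at least 1 and the median was -0.87. PLK1, a mitotic kinase, was at 74.0 CPM in the control and 20.6 CPM in si-hnRNPK (-1.80). TRIP13, the ATPase that disassembles the checkpoint complex, was at 143.1 and 48.9 CPM (-1.53). CDC20, the target of the checkpoint, was at 362.4 and 167.2 CPM (-1.11). MAD1L1, the partner of MAD2, was at 21.05 and 21.2 CPM (0.01).

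The anaphase-promoting complex, on which the checkpoint acts, had the median nearest 0 of the 7 lists, -0.16 over 18 genes. The 2 of its list that were lower by at least 1 are not subunits but the ubiquitin-conjugating enzyme UBE2C, at 298.5 and 132.6 CPM (-1.17), and the inhibitor FBXO5, at 87.7 and 42.9 CPM (-1.01). Of 12 cohesin, securin and separase genes, 4 were lower by at least 1, all 12 were below 0 and the median was -0.81. These were securin, PTTG1, at 470.5 and 175.1 CPM (-1.42), the cohesin subunit gene SMC1A at -1.18, the cohesin loader gene NIPBL at -1.14 and PDS5A at -1.03. FBXO5 and PDS5A lay within 0.1 of the threshold and lost their calls under median-of-ratios scaling, and the separase gene ESPL1 lay just short of it, at -0.99. In si-PTBP1 and in the si-lncRNA-LBCS-labelled library none of these 5 lists held a gene past the threshold in either direction. Over all genes tested, 0.613% were lower and 2.92% higher in si-PTBP1, and 1.01% lower and 0.378% higher in the si-lncRNA-LBCS-labelled library. Shares that small leave few such genes in lists of this size.

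The cell cycle lists had medians below 0 as well. Of 41 S phase genes, 17 were lower by at least 1 in si-hnRNPK, with a median of -0.83, and of 44 G2/M phase genes 27 were, with a median of -1.11. Median-of-ratios scaling left 13 of the S phase genes, without PRIM1, UBR7, ATAD2 and HELLS, and 22 of the G2/M phase genes, without KIF2C, CDC25C, CDK1, CKAP2 and KIF23. The lowest of the S phase genes were TYMS at -1.84, MCM4 at -1.67 and CLSPN at -1.66, and of the G2/M phase genes MKI67 at -2.65, DLGAP5 at -1.78 and CKAP2L at -1.73. The other S phase genes past the threshold included CDC45, E2F8, WDR76, RRM2, BLM, CDC6, POLA1, CCNE2, GMNN, PRIM1, UBR7, ATAD2 and HELLS. The other 24 G2/M phase genes past it were PSRC1, GTSE1, GAS2L3, TACC3, TPX2, TOP2A, CDCA2, HJURP, AURKA, KIF20B, NUSAP1, SMC4, PIMREG, CDCA3, KIF11, NCAPD2, NEK2, UBE2C, CDC20, KIF2C, CDC25C, CDK1, CKAP2 and KIF23, of which HJURP, UBE2C and CDC20 are also in the lists above. The G2/M list also holds 10 of the 38 kinetochore and checkpoint genes, which were left out of its counts here. Those 10 had a median of -1.06 with 5 past the threshold, and the 28 outside the list had a median of -0.95 with 13 past it. In each of the other siRNA libraries 1 gene of these lists was past the threshold, JPT1 at -1.11 in si-PTBP1, where median-of-ratios scaling gave 3 lower genes, and MKI67 at -1.23 in the si-lncRNA-LBCS-labelled library. The small shares over all genes tested in these libraries, given above, apply here as well. The part of the share of dividing cells in the values of the 38 genes was not tested.

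**Figure D4:**
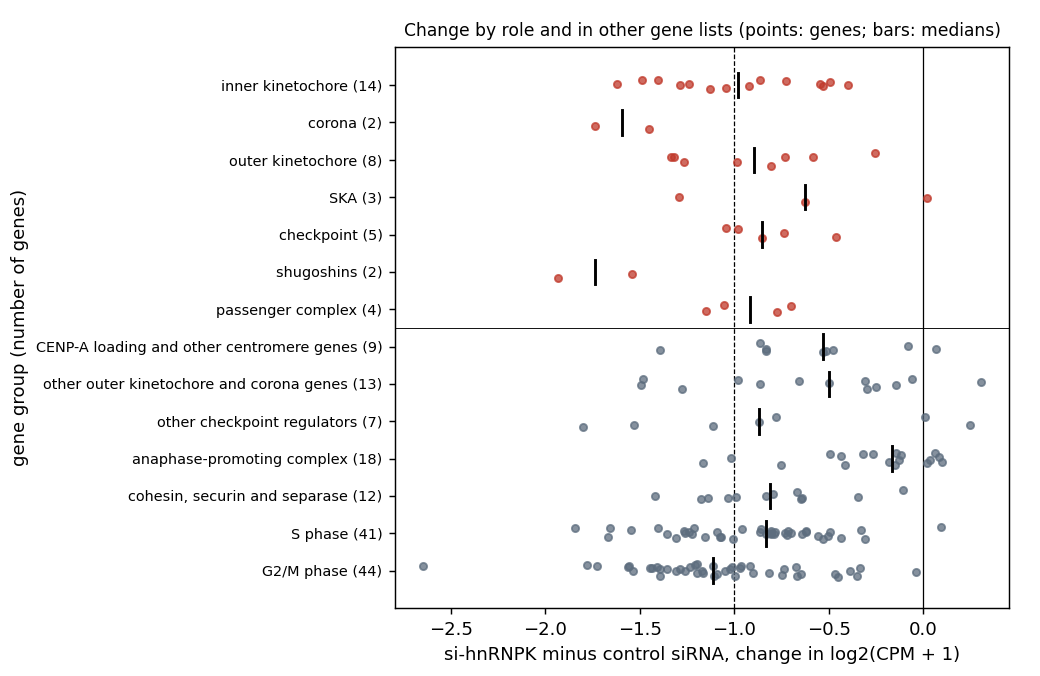
Change in si-hnRNPK against control on the log2(CPM + 1) scale (horizontal axis) for the 38 genes by role, above the line in red, and for 7 other gene lists, below it in grey (vertical axis, with the number of genes). Points are genes, bars are medians and the dashed line marks -1. The medians of the roles run from -1.74 for the shugoshins to -0.62 for the SKA complex, and the anaphase-promoting complex list, at -0.16, lies nearest to 0.

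An siRNA can also lower mRNAs that pair with its seed, guide bases 2 to 8. The sense strands of both hnRNPK siRNAs are shown because their bases 12 to 18, in capitals, are the letters a seed-matched mRNA would hold:
si-hnRNPK siRNA-1: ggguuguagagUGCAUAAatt
si-hnRNPK siRNA-2: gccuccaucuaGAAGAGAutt

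The longest annotated 3' UTRs of 3 of the 38 genes, SGO2, CENPQ and BUB3, hold the match of siRNA-1, or 7.89% beside 11.5% of the 11722 genes tested that have a 3' UTR. Those of 5, BUB1B, CDCA8, BIRC5, BUB3 and CENPP, hold the match of siRNA-2, or 13.2% beside 23.1%. The 7 genes with either match had a median change in si-hnRNPK of -1.15 with 5 past the threshold. The 31 genes with neither had a median of -0.92 with 13 past it, and CENPE, at -1.74, was the lowest of them. Over all genes tested the median was -0.25 with the siRNA-1 match and -0.08 without it, and -0.15 with the siRNA-2 match and -0.09 without it. SGO2 and CENPQ, which hold the siRNA-1 match, are among the 3 largest falls of the group, and BUB3, which holds both matches, is at -0.46. The part of the seeds in these values was not tested.

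Promoter sequences are shown for the 4 genes with the largest changes in si-hnRNPK and the 2 with the smallest, as the 250 bases before an annotated start (RefSeq, GRCh38.p14), read 5' to 3' on the strand of the gene. The windows are chr2:200525957-200526206 (plus strand, SGO2), chr4:103198344-103198593 (minus, CENPE), chr6:49463120-49463369 (plus, CENPQ), chr3:20186207-20186456 (minus, SGO1), chr17:5486316-5486565 (plus, MIS12) and chr17:59155187-59155436 (minus, SKA2). SGO2 and MIS12 each have 2 starts in the table, of which the downstream one is shown. Capitals mark CCAAT or its reverse complement ATTGG, the letters bound by the factor NF-Y, and TTTGAA or TTCGAA, the letters of the cell cycle homology region of many late cell cycle genes:
SGO2: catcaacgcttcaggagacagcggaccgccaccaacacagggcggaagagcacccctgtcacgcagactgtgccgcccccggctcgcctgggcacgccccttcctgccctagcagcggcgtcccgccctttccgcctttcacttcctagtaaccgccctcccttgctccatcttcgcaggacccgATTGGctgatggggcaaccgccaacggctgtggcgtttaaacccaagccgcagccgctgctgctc
CENPE: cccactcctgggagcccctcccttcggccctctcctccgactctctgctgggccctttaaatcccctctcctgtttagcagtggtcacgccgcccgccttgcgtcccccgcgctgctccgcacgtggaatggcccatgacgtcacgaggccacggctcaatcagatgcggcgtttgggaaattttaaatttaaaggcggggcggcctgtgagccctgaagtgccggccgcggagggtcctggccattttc
CENPQ: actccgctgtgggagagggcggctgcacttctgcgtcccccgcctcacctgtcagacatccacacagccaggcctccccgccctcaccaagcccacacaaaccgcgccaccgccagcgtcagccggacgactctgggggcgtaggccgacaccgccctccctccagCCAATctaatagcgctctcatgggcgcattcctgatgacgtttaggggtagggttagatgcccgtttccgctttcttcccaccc
SGO1: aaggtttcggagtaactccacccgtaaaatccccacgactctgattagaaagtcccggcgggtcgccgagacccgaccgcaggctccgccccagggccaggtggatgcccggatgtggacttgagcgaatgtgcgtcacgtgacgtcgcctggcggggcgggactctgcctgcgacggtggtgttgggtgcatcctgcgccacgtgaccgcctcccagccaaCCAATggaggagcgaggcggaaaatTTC
MIS12: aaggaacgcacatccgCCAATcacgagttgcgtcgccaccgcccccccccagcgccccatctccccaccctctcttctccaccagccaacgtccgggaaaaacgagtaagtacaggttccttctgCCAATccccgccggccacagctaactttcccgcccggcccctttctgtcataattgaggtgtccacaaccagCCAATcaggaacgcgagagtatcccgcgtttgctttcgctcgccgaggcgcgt
SKA2: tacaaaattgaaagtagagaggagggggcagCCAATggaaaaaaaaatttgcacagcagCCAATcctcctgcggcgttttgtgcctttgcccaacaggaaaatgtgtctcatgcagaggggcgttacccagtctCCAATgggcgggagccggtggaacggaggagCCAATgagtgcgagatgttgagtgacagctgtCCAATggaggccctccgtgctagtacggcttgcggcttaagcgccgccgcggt

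The SKA2 window holds 5 CCAAT and the shown MIS12 window 3 (its other start has 2), and these genes had the smallest changes. The CENPE window, of the gene with the next to largest change, holds none of the 3 motifs. SGO2 and CENPQ hold 1 CCAAT each, and the capitals at the end of the SGO1 window are the first 3 letters of a TTCGAA that runs across the start. The cell cycle homology letters of 6 genes are shown with their flanks, those with the highest control CPM among the 18 that hold them, a choice made after the values were seen. They lie at chr1:214603225-214603244 (plus, CENPF), chr2:110678047-110678072 (minus, BUB1), chr15:40161036-40161061 (plus, BUB1B), chr11:62123991-62124016 (plus, INCENP), chr10:56361275-56361300 (minus, ZWINT) and chr4:120066809-120066834 (minus, MAD2L1), and the ZWINT letters are read on the strand opposite to the gene:
CENPF: ctgcgggcagTTTGAAttag
BUB1: gcgcggggtaTTCGAAtcggcggcgg
BUB1B: gaccgttaaaTTTGAAacttggcggc
INCENP: agccttcagtTTTGAAaatcatagtt
ZWINT: ctaagattacTTTGAAgtcacagtcg
MAD2L1: cgtcgttactTTTGAAacgcttggcg

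Promoter windows of 300 bases, 250 before and 50 after a start, were matched for 32 of the 38 genes, the others being CENPH, CENPM, CENPL, BUB3, TTK and BIRC5. TTTGAA or TTCGAA, searched on both strands, stood in the windows of 18 of the 32, or 56.3%, beside 15.5% of 10100 tested genes with a window and 16.4% of all 35116 windows. CCAAT stood in 21 of the 32, or 65.6%, beside 43.4% of tested genes and 34.6% of all windows. In si-hnRNPK the 18 genes with TTTGAA or TTCGAA had a median of -1.04 with 10 past the threshold, and the 14 without had a median of -0.89 with 6 past it. With CCAAT the median was -0.99, and without it -1.04. A count of 2 or more CCAAT was found for 13 of the 32 genes, or 40.6%, beside 16.4% of tested genes. Those 13 had a median of -0.92 with 5 past the threshold, and the 19 others had a median of -1.04 with 11 past it. A match is a stretch of letters and was not tested as a binding site.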

How the data were processed

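RNA was sequenced as 100-base paired-end reads by the authors, who deposited CPM per Ensembl gene identifier, 1 table per library, from total RNA. The submitters' processing notes name hg19. The aligner, the counting method and the annotation are not given in the sources used here. The deposited CPM were whole multiples of 1 read for 100% of genes above the placeholder (tolerance 0.01 read), which gave the reads. That placeholder, on genes without reads, was set to 0.

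Changes are differences in log2(CPM + 1) with a threshold of 1 and 95% Clopper-Pearson intervals, for genes listed in both tables that reached 1 CPM in either. The 38 genes and all lists were chosen with earlier results of these data known. Named genes are all 38, the genes of the other lists past the threshold and the siRNA targets, apart from an item not reported here, and some marker and other list genes were named after their values were seen. Positions, exons, 3' UTRs and siRNA matches are from GENCODE release 29 (GRCh38), and promoters from RefSeq (GRCh38.p14). Alternatives were 1.5-fold as the threshold, 0.1 as the pseudocount, filters of 5 CPM and none, median-of-ratios scaling and another reference. A binomial test, which compares libraries and not conditions, was also run on the reported calls and removed none. The software was scipy 1.17.1, pandas 2.3.3, numpy 2.4.6 and matplotlib 3.10.9 under Python 3.11.15. The step that compares libraries and its counting interval were tested on simulated reads, and the other steps were not.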

Additional observations from a re-analysis of the deposited data

How the results depend on the processing

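With 1 library per condition no replicate could be left out, and no difference has a replicate check. A paired analysis was not possible for the same reason. The median of the 38 genes in si-hnRNPK against control, -0.98, was -1.01 with a pseudocount of 0.1, -0.88 with median-of-ratios scaling and -0.90 when the reference was the geometric mean of the other 3 libraries. With that geometric mean 14 of the 38 were lower by at least 1 in place of 18. A threshold of 1.5-fold gave 30 lower genes in place of 18 in si-hnRNPK against control and 1 in place of 0 in the si-lncRNA-LBCS-labelled library. It gave 27 in place of 13 against si-PTBP1 and 31 in place of 18 against the si-lncRNA-LBCS-labelled library. Against si-PTBP1, median-of-ratios scaling gave 5 lower genes in place of 13 and a median of -0.63 in place of -0.86. Against the si-lncRNA-LBCS-labelled library the median of -0.95 became -0.99 with a pseudocount of 0.1 and -0.85 with median-of-ratios scaling. In si-PTBP1 the median of -0.19 became -0.31 under median-of-ratios scaling. It became 0.18, the opposite sign, with the geometric mean as the reference, which there includes the low si-hnRNPK library. That reference left 10 genes below 0 in si-PTBP1 in place of 32. In the si-lncRNA-LBCS-labelled library the median of 0.03 became 0.0393 with median-of-ratios scaling and 0.42 with the geometric mean, which left 2 genes below 0 in place of 16. Of the changes of single genes against control, recomputed with a pseudocount of 0.1 and with median-of-ratios scaling, 168 moved by less than their counting error and 60, all under median-of-ratios scaling, by more, and no gene past the threshold changed direction. Over all genes tested a pseudocount of 0.1 gave 995 lower and 790 higher genes in si-hnRNPK in place of 537 and 486, and a threshold of 1.5-fold 2165 and 1352. The same settings gave 173 and 793, and 432 and 1673, in si-PTBP1 in place of 85 and 404, and 353 and 165, and 774 and 559, in the si-lncRNA-LBCS-labelled library in place of 136 and 51. Against si-PTBP1 they gave 1525 and 478, and 3202 and 874, in place of 840 and 330, and against the si-lncRNA-LBCS-labelled library 606 and 647, and 1547 and 1080, in place of 339 and 418. With the geometric mean as the reference the counts were 358 and 317 in si-hnRNPK and 74 and 234 in si-PTBP1, and 6 genes were higher in the si-lncRNA-LBCS-labelled library. Apart from what each setting changes by construction, the cause of these moves was not tested. No filter and a filter of 5 CPM could not alter the counts of the 38 genes, since every comparison held a library with all 38 above 5 CPM. The binomial test left these counts as they were.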
